A study of Mus musculus with 7 samples.

Results

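The cytochrome P450 (Cyp), glutathione S-transferase (Gst) and flavin-containing monooxygenase (Fmo) genes were compared between lungs of Gata5 knockout (KO) and wild-type (WT) mice. Gata5 is a DNA-binding factor with zinc fingers from the GATA family. The enzyme genes were chosen by symbol: families Cyp1 to Cyp4, the alpha, mu, pi and theta classes of Gst, and Fmo. This gave 74 of the 18193 named genes on the array, measured by 99 probe sets. For a gene with several probe sets, the one with the highest mean was used. Left lungs were taken at 8 weeks of age from 3 KO and 4 WT mice, and the RNA of each lung was hybridised to 1 Affymetrix Mouse Genome 430 2.0 array. The labels call the arrays of a group biological replicates. The sources used here do not give the strain, the sex, the deleted exons of Gata5 or whether WT mice were littermates.

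P450 enzymes are haem proteins of the endoplasmic reticulum that insert oxygen into fatty acids, steroids and foreign compounds, with electrons passed on by the reductase Por. Flavin-containing monooxygenases oxidise nitrogen and sulphur atoms of drugs and dietary amines, and glutathione transferases attach glutathione to reactive products of such oxidations. In mouse lung this machinery is concentrated in club cells of the small airways, which are known for Cyp2f2, the P450 that turns naphthalene into a toxic epoxide, while Cyp1a1 is best known as a gene switched on through the aryl hydrocarbon receptor, Ahr.

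With the brightest probe set of each gene, none of the highly expressed lung enzymes passed the test between KO and WT lungs, and 3 P450 genes at lower levels, Cyp2c29, Cyp2c50 and Cyp4f13, rose in KO lungs. When all probe sets of a gene were averaged, Fmo2 and Cyp2b10, both highly expressed, also passed, and both fell in KO lungs. With that averaging, 1218 of all 13285 tested genes fell and 557 rose. Of the 74 genes, 41 reached the level filter, a mean log2 level of 5.47, and were tested, and 33 lay below it. In a limma fit over all 13285 tested genes with Benjamini-Hochberg adjustment, 3 of the 41 passed an adjusted p of 0.05, all 3 higher in KO. For Cyp2c29 and Cyp2c50 the WT mean lay under the filter and the KO mean over it, so these genes entered the test through the KO arrays. The 3 that passed are 7.32% of the tested enzyme genes, against 15.6% of all tested genes. Over all tested genes 5.56% were higher and 10.0% lower (738 and 1331), while 0 of the 41 enzyme genes were lower. Further quantile normalization turned the split over all genes to 1191 higher and 902 lower, and cyclic loess gave 942 and 1076, with 3 and 0 enzyme genes in both. At an unadjusted p under 0.05, 10 of the 41 were higher and 2 lower. Over all tested genes 34.8% reached this in either direction, 1917 higher and 2705 lower. The median log2 change of the 41 genes was 0.11, against -0.003 for all tested genes, and 29 of the 41 had a higher mean in KO lungs, against 49.2% of all tested genes. Changes of 35 of the 41 genes lay within 1.25-fold in either direction, as did those of 11218 of all 13285 tested genes. By enzyme type, the 3 genes that passed were among 22 tested P450 genes, and 0 of 15 tested Gst genes and 0 of 4 tested Fmo genes passed. In whole lung, fewer cells of a type and less RNA per cell cannot be told apart.

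**Figure D1:**
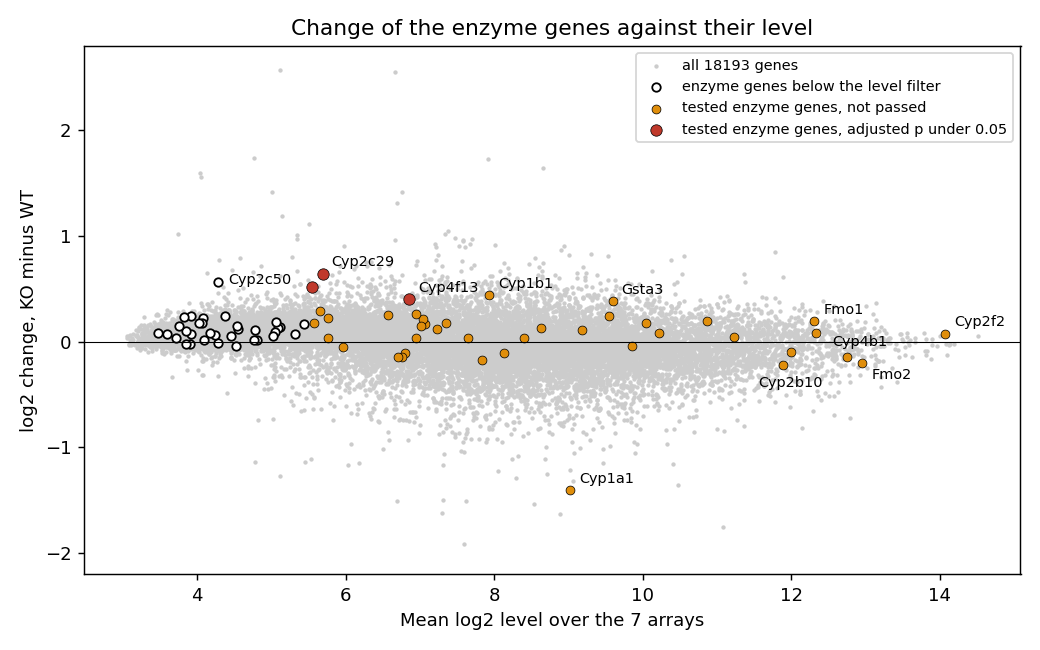
The log2 change (KO minus WT, vertical axis) is plotted against the mean log2 level over the 7 arrays (horizontal axis) for all 18193 genes in grey and the 74 enzyme genes in colour or as open circles. The 3 genes that passed lie left of the highly expressed enzymes, Cyp1a1 lies lowest of the enzyme genes at -1.40 without passing, and the enzymes at the right lie close to 0.

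Arrays of both groups had similar overall levels, with medians between 6.10 and 6.15, but differed in other ways. Gata5 itself had log2 levels of 4.98, 4.71 and 5.15 on the KO arrays, against 5.32, 5.53, 5.85 and 5.47 on the WT arrays, so the KO arrays were the lower ones without overlap, at levels close to the level filter. WT replicate 4 stood apart in sex-linked genes, with Xist at 12.72 and the Y-linked Eif2s3y at 3.71, where the other 6 arrays had Xist between 6.31 and 6.48 and Eif2s3y between 9.30 and 9.68. The KO arrays were thus alike in these genes and the WT arrays were not, and the part of this imbalance in the enzyme results was not tested. In the fit without WT replicate 4, Cyp2c29, Cyp2c50 and Cyp4f13 passed. The beta-actin control, probed at both ends of its transcript, gave a 3′ minus 5′ log2 difference of 4.96 ± 0.37 on KO arrays and 4.10 ± 0.22 on WT arrays (SD, n = 3 and 4) without overlap. The 3′ minus middle difference of beta-actin was 3.02 ± 0.28 on KO arrays and 2.42 ± 0.14 on WT arrays. That of Gapdh was 4.01 ± 0.26 and 3.47 ± 0.16, and neither overlapped. Lung identity was plain: the club cell product Scgb1a1 lay between 14.47 and 14.61 on KO arrays and between 14.45 and 14.52 on WT arrays.

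The 12 tested enzyme genes with the highest mean levels were taken as the highly expressed lung enzymes. With their brightest probe sets, none of the 12 passed the test, at unadjusted p under 0.05 only Cyp2b10 did, and all 12 had a change within 1.25-fold and a 95% interval within 1.5-fold. Passing depended on the probe set for Fmo2 and Cyp2b10, which passed with the mean of all their probe sets, at log2 changes of -0.50 and -0.27 (limma adjusted p = 0.0112 and 0.0465). Cyp2f2 had log2 levels of 14.07, 14.06 and 14.22 on KO arrays, against 14.06, 14.10, 14.01 and 13.99 on WT arrays. These overlapped, and the log2 change of 0.08 had a 95% interval of -0.07 to 0.22 (limma adjusted p = 0.414). Cyp4b1, a P450 that oxidises fatty acids and activates some lung toxins, had 12.72, 12.53 and 12.76 in KO lungs, against 12.88, 12.88, 12.73 and 12.75 in WT lungs. The groups overlapped, with a log2 change of -0.14 (95% interval -0.32 to 0.04, limma adjusted p = 0.227). Cyp2b10, the phenobarbital-inducible P450 of mouse liver, had 11.65, 11.74 and 11.90 in KO lungs, against 11.86, 11.99, 12.11 and 11.98 in WT lungs. KO replicate 3 lay inside the WT range, and the log2 change was -0.22 (95% interval -0.41 to -0.03, limma adjusted p = 0.102). Cyp2s1, a P450 of lining epithelia, had a log2 change of 0.04 with groups that overlapped. Cyp4v3, a fatty acid hydroxylase, had a log2 change of 0.18 (limma adjusted p = 0.169). Its other probe set, 1417070_at, went the other way, by -0.35 or 1.27-fold, without passing in the fit over all named probe sets (limma adjusted p = 0.141).

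Among the conjugating enzymes at high level, the pi-class Gstp1 had 12.39, 12.37 and 12.35 in KO lungs, against 12.23, 12.34, 12.31 and 12.28 in WT lungs. The KO arrays were all higher, but the log2 change was 0.08 (limma adjusted p = 0.323). The mu-class Gstm1 had 11.96, 11.91 and 11.96 in KO lungs, against 11.90, 12.44, 11.85 and 11.96 in WT lungs, where WT replicate 2 was the high array (log2 change -0.09, limma adjusted p = 0.635). Gstm2, also of the mu class, had 9.83 on each of the 3 KO arrays, against 9.82, 10.13, 9.86 and 9.68 in WT lungs (log2 change -0.04, limma adjusted p = 0.782). Gsta4, which clears aldehydes formed by lipid peroxidation, had a log2 change of 0.20 and the theta-class Gstt1 of 0.09 (limma adjusted p = 0.349 and 0.362). Of 10 club cell markers, 0 passed in the limma fit. At an unadjusted p under 0.05, 3 of the 10 were higher, against 1917 of all 13285 tested genes. The mean log2 level of the 10 was 12.02 to 12.36 on KO arrays and 11.94 to 12.11 on WT arrays.

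**Figure D2:**
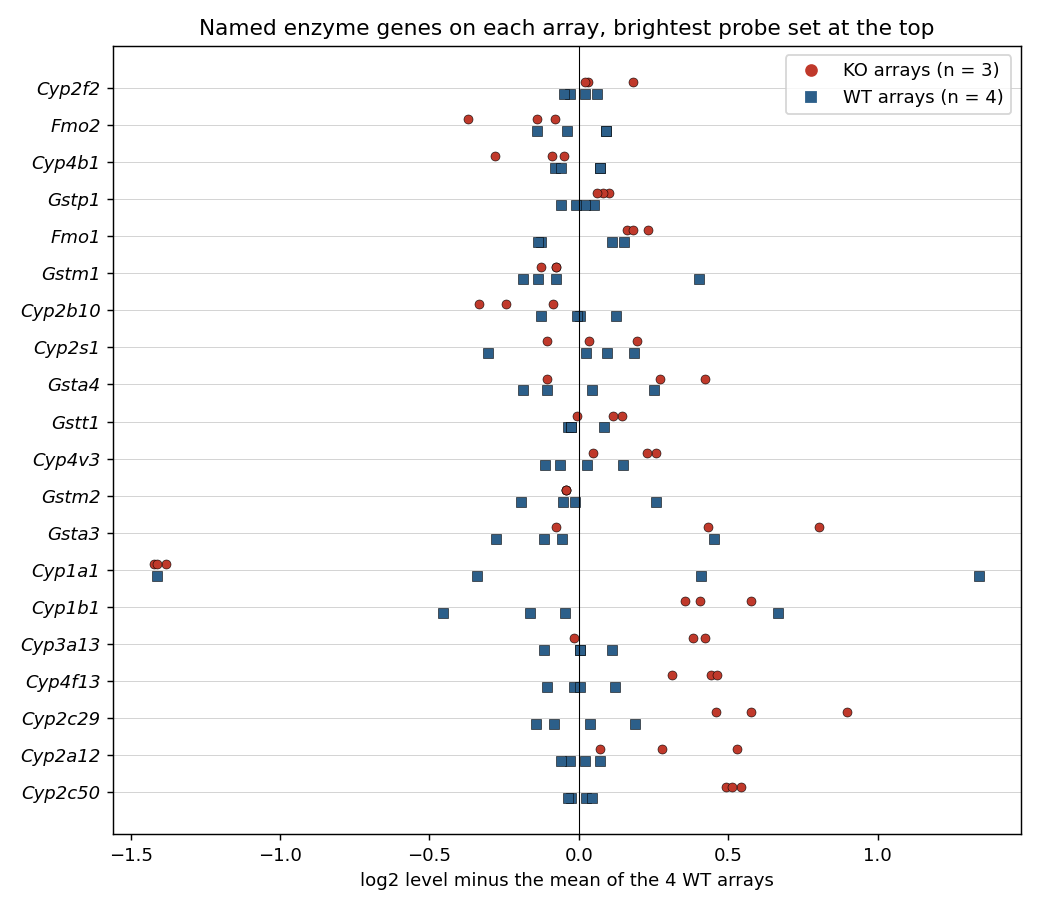
Each named enzyme gene has 1 row, with its 3 KO arrays as red circles above and its 4 WT arrays as blue squares below, as log2 level minus the mean of the 4 WT arrays (horizontal axis), and genes ordered by level. The groups stand apart for Cyp2c50, Cyp2c29 and Cyp4f13, and by less for Gstp1 and Fmo1, and the WT arrays of Cyp1a1 spread widest.

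Cyp2c29 and Cyp2c50 belong to the Cyp2c subfamily, which in mouse includes epoxygenases of arachidonic acid and is known mainly from liver. They lie on chromosome 19, and the start regions of both are shown because they are the Cyp2c genes that passed. Both reached the level filter only through the KO arrays, as given below, so this choice rests on the changes themselves. Each sequence below runs 5′ to 3′ on the plus strand of GRCm38.p6 from 250 bases before to 50 bases after the annotated start, from RefSeq. Capitals mark the longest run that both share, 20 bases. Cyp2c29 spans chr19:39286835-39287134 and Cyp2c50 spans chr19:40089429-40089728.
Cyp2c29: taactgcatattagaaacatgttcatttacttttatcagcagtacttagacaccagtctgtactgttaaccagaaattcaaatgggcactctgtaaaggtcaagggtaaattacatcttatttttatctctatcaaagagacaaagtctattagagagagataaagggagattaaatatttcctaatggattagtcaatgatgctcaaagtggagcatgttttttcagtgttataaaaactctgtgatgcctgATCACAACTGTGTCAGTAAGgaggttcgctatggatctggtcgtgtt
Cyp2c50: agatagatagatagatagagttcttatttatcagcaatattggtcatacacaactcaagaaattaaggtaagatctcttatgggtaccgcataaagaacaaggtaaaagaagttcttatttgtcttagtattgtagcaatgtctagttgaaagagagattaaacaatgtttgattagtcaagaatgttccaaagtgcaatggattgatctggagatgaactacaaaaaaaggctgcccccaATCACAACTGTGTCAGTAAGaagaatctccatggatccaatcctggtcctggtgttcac
The letters GATAA, the core recognised by GATA factors, occurred on either strand 3 times in the Cyp2c29 window and 1 time in the Cyp2c50 window. They occurred in 25.8% of 27025 genes' windows of this length and in 28 of the 60 enzyme genes that had a window (46.7%). A match of letters is a description only.

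Cyp2c50 had log2 levels of 5.86, 5.81 and 5.83 on KO arrays, against 5.29, 5.34, 5.36 and 5.28 on WT arrays. All KO arrays were higher, by a log2 change of 0.52 or 1.43-fold (SE 0.05, 95% interval 0.39 to 0.64, limma adjusted p = 0.00526). Cyp2c29 had 6.31, 5.87 and 5.99 on KO arrays, against 5.27, 5.45, 5.33 and 5.60 on WT arrays. The groups stood apart, with a log2 change of 0.64 or 1.56-fold (SE 0.12, 95% interval 0.37 to 0.91, limma adjusted p = 0.0126). For both genes the WT mean lay under the level filter and the KO mean over it, so they entered the test through the KO arrays. With no filter both still passed, with limma adjusted p = 0.00581 for Cyp2c50 and 0.0150 for Cyp2c29. The other 9 Cyp2c genes lay below the filter, and 8 of them had a higher mean in KO lungs, as did 84.1% of all genes below the filter. Cyp2c genes are close relatives in sequence, and whether these probe sets detect more than 1 of them was not tested. Markers of liver cells lay in the same low range, with a mean log2 level of the 7 on the array of 5.43 to 5.61 in KO lungs and 5.07 to 5.51 in WT lungs. Of these, 4 lay below the filter, none of the 3 tested passed, and Alb, serum albumin, had 6.75, 7.05 and 6.54 in KO lungs, against 5.61, 6.30, 6.09 and 6.92 in WT lungs. Their part in the Cyp2c result was not tested.

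Cyp4f13, of the Cyp4f subfamily that oxidises fatty acids and leukotrienes at their end, had 7.12, 6.99 and 7.14 in KO lungs, against 6.80, 6.66, 6.57 and 6.68 in WT lungs. The groups stood apart, with a log2 change of 0.41 or 1.32-fold (SE 0.07, 95% interval 0.24 to 0.57, limma adjusted p = 0.0116). Of the other 4 tested Cyp4f genes, none passed, and their log2 changes were between -0.14 and 0.21. All 3 genes that rose passed in each fit that left out 1 array. Their calls ended in fits that took a 3′ minus 5′ or 3′ minus middle difference of beta-actin or Gapdh as a covariate, with limma adjusted p between 0.114 and 0.433, and 0 or 5 of all tested genes passed in those fits. The log2 changes in those fits were 0.51 to 0.54 for Cyp2c50, 0.86 to 1.07 for Cyp2c29 and 0.29 to 0.61 for Cyp4f13. Each of these differences split the KO from the WT arrays without overlap, so those fits can hardly separate the covariate from genotype. In the 5 mice with the lowest numbers in their sample titles the limma adjusted p was 0.112 for Cyp4f13, 0.0821 for Cyp2c29 and 0.0741 for Cyp2c50, at log2 changes of 0.35, 0.70 and 0.52, and 0 of all tested genes passed. These 5 include all KO mice but not WT replicates 3 and 4, so that fit had fewer WT arrays. With the replicate number as a block, Cyp4f13 did not pass either, at a log2 change of 0.41 (limma adjusted p = 0.062), while Cyp2c29 and Cyp2c50 passed.

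The flavin-containing monooxygenases gave different values by probe set. Fmo2 is the main enzyme of its family in mouse lung. Its probe set with the highest mean, 1435459_at, had 12.67, 12.96 and 12.90 in KO lungs, against 13.00, 13.13, 12.90 and 13.13 in WT lungs, a log2 change of -0.20 that did not pass (95% interval -0.41 to 0.01, limma adjusted p = 0.163). The 4 other Fmo2 probe sets were fitted among all 34945 named probe sets, of which 11.8% passed (3.98% higher and 7.85% lower in KO). There, 3 of the 4 fell in KO lungs. For 1422904_at the log2 levels were 9.01, 8.76 and 8.99 on KO arrays, against 10.30, 10.07, 9.75 and 9.99 on WT arrays. Every KO array was lower, with a log2 change of -1.11 or 2.15-fold (95% interval -1.39 to -0.82, limma adjusted p = 0.00372). For 1453435_a_at they were 9.90, 9.86 and 10.33 on KO arrays, against 10.83, 11.08, 10.54 and 11.08 on WT arrays (log2 change -0.85, limma adjusted p = 0.0146). For 1422905_s_at they were 10.63, 10.43 and 10.54 on KO arrays, against 11.54, 11.29, 10.93 and 11.07 on WT arrays (log2 change -0.67, limma adjusted p = 0.0186). The dimmest, 1454005_at, went the other way by 0.32 without passing (limma adjusted p = 0.0716). The 3′ minus 5′ difference of beta-actin was larger on KO arrays, as given above, and its part in the gap between Fmo2 probe sets was not tested. The 3 calls ended in each of the 3 fits with a 3′ covariate, and only that of 1422904_at held in the 5 mice. Leaving out KO replicate 2 or 3 ended the call of 1422905_s_at (limma adjusted p = 0.0525 and 0.0595).

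Across the 99 probe sets of the enzyme genes, 9 passed in that fit, 5 higher and 4 lower in KO. The 5 were those of Cyp2c29, Cyp2c50 and Cyp4f13 and of Cyp2b13 and Cyp2d10, which lie below the level filter. The 4 were the Fmo2 probe sets above and a Cyp2b10 probe set. That Cyp2b10 probe set, 1451787_at, had 11.10, 11.19 and 11.33 in KO lungs, against 11.47, 11.57, 11.69 and 11.54 in WT lungs. The groups stood apart, with a log2 change of -0.36 or 1.28-fold (limma adjusted p = 0.0223), and the call ended without KO replicate 1, WT replicate 3 or WT replicate 4 (limma adjusted p = 0.0587, 0.0550 and 0.0551). It also ended after further quantile normalization (limma adjusted p = 0.0661), after cyclic loess (adjusted p = 0.0543), with each of the 3′ covariates (adjusted p = 0.187 to 0.301) and in the 5 mice (adjusted p = 0.166), at log2 changes between -0.51 and -0.28. Of 25 further probe sets over 17 genes with more than 1, 15 had the sign of the chosen one. Gsta3, an alpha-class transferase, was at odds with itself, with a log2 change of 0.39 for its chosen probe set and -0.61 for 1423436_at (limma adjusted p = 0.245 and 0.0579). Fmo1, the form known from mouse liver and kidney, had 12.39, 12.46 and 12.41 in KO lungs, against 12.34, 12.10, 12.09 and 12.38 in WT lungs. The KO arrays were just higher, with a log2 change of 0.19 (limma adjusted p = 0.154).

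**Figure D3:**
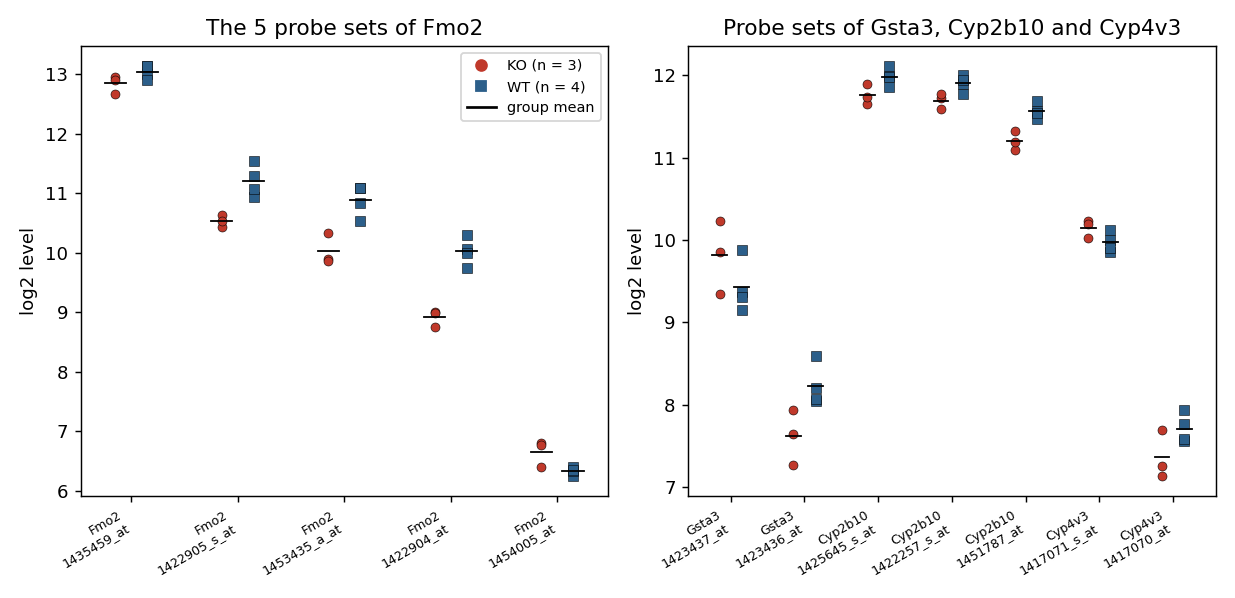
Log2 levels (vertical axis) of each probe set of Fmo2 (left) and of Gsta3, Cyp2b10 and Cyp4v3 (right), with 3 KO arrays as red circles, 4 WT arrays as blue squares and group means as lines. For Fmo2 the KO arrays lie under the WT arrays in 3 of 5 probe sets, while 1435459_at overlaps.

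Cyp1a1 had the widest spread of the tested enzyme genes, and it came from WT lungs. Its start region is shown because it holds the letters GCGTG, the core of the sites that the Ahr complex recognises, marked in capitals. The match is one of letters only, and whether Ahr binds there was not tested. The window, chr9:57697363-57697662 on the plus strand of GRCm38.p6 from RefSeq, covers the same distances as above and runs 5′ to 3′.
Cyp1a1: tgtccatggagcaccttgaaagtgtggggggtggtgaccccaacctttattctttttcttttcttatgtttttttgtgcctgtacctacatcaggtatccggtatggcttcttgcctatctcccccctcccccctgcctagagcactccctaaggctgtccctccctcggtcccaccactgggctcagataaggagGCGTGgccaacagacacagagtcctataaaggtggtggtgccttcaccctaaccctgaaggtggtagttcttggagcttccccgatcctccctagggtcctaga
GCGTG was searched on both strands and occurred 1 time here, in 32.5% of 27025 genes' windows and in 16 of the 60 enzyme genes with a window. GATAA also occurred 1 time in the Cyp1a1 window. The log2 levels were 8.20, 8.24 and 8.21 on KO arrays, against 8.21, 10.96, 10.03 and 9.28 on WT arrays. The KO arrays were nearly equal, WT replicate 1 was at their level, and the other 3 WT arrays were higher. The SD was 0.021 in KO lungs and 1.16 in WT lungs. The log2 change was -1.40 or 2.65-fold lower in KO (95% interval -2.62 to -0.19), and it did not pass (limma adjusted p = 0.104). Without WT replicate 1, the WT array at the KO level, it did, at -1.87 (limma adjusted p = 0.0296). Over all fits that left out 1 array, the Cyp1a1 change ran from -1.87 to -0.96 (limma adjusted p up to 0.208). Tiparp, another target of Ahr, had a log2 change of -0.12 (limma adjusted p = 0.339). Cyp1b1, a target of Ahr in the same family, had 8.14, 8.09 and 8.31 in KO lungs, against 7.69, 8.40, 7.57 and 7.28 in WT lungs (log2 change 0.45, limma adjusted p = 0.194). For Cyp1b1, WT replicate 2 was the only WT array at the KO level, and without it the gene passed at 0.67 (limma adjusted p = 0.0186). Over all fits that left out 1 array, its change ran from 0.29 to 0.67 (limma adjusted p up to 0.389). Its other probe sets, below the level filter, had changes of -0.008 and 0.09. Leaving out the array that goes against a difference favours a pass, so no conclusion is drawn from these passes. Ahr itself had a log2 change of 0.16 (limma adjusted p = 0.255).

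Within-group spread was wide for 4 other genes too, and WT replicate 2 was the highest WT array in each. The median within-group SD was 0.131 log2 for the 41 genes and 0.109 for all tested genes. The percentile among all tested genes was 99.9 for Cyp1a1, 99.8 for Cyp2e1, 99.5 for Gsta2, 98.4 for Cyp1b1 and 98.3 for Gsta3. Cyp2e1, the ethanol-oxidising P450, had 7.61, 8.41 and 8.20 in KO lungs, against 8.09, 9.46, 7.66 and 7.50 in WT lungs. The groups overlapped, and the log2 change of -0.10 had a 95% interval of -1.10 to 0.89 (limma adjusted p = 0.880). Gsta2, an alpha-class transferase, had 9.21, 9.69 and 10.14 in KO lungs, against 9.36, 10.26, 9.10 and 9.01 in WT lungs (log2 change 0.25, limma adjusted p = 0.594). Gsta3 had 9.35, 9.86 and 10.23 in KO lungs, against 9.37, 9.88, 9.31 and 9.15 in WT lungs. WT replicate 2 was also the highest array for the mean of 17 Nrf2-linked and glutathione genes, a list used below, at 9.685. The other WT arrays had 9.338, 9.387 and 9.328, and the KO arrays 9.294 to 9.380. The fat cell list had a mean level of 5.33 to 5.60 on KO arrays and 5.42 to 5.80 on WT arrays over 6 genes. The part of either list in these spreads was not tested. Of the 3 tested fat cell genes, none passed, and Adipoq alone had a lower mean in KO, with 5.36, 6.61 and 6.58 in KO lungs, against 6.58, 7.78, 6.41 and 6.05 in WT lungs. A probe set shared by Cyp2a5 and Cyp2a4, P450 genes of nearly equal sequence that were not counted among the 74, had 8.68, 10.61 and 10.60 in KO lungs, against 9.92, 10.82, 9.57 and 9.60 in WT lungs. It was lowest on KO replicate 1 and highest on WT replicate 2.

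**Figure D4:**
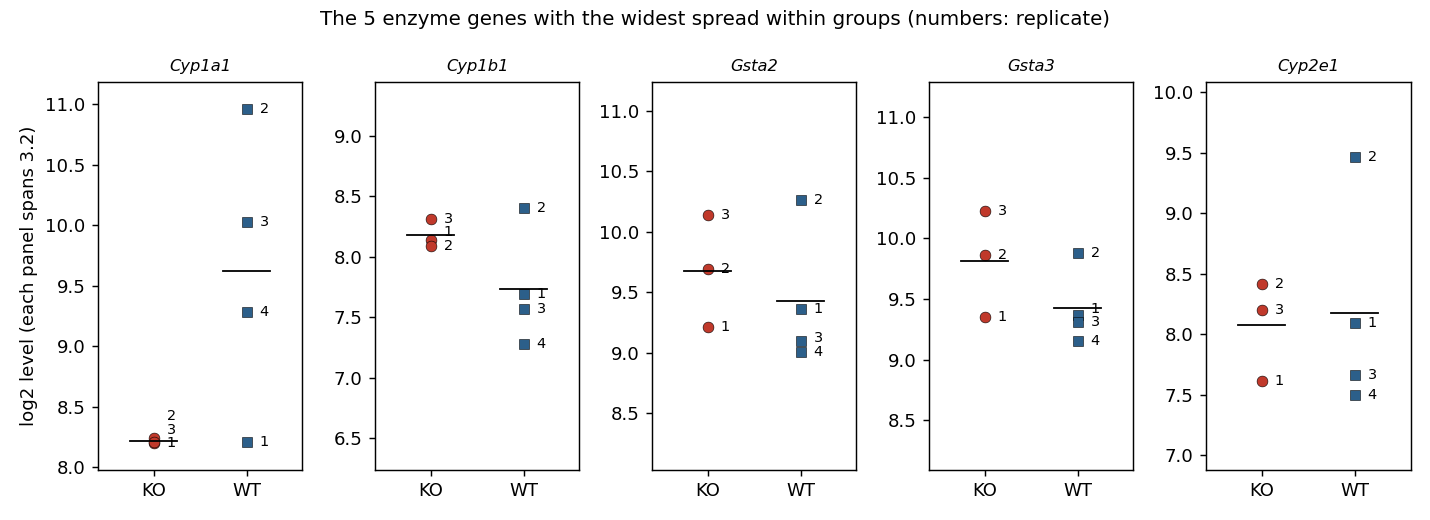
Log2 levels (vertical axis, each panel spanning the same 3.2 units) of the 5 enzyme genes with the widest spread within groups, KO as red circles and WT as blue squares with replicate numbers, and group means as lines. Cyp1a1 is close to 8.2 on all KO arrays and reaches 10.96 on WT replicate 2.

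The remaining tested genes gave small changes. Of the mu-class genes, 0 of 7 passed in the limma fit, with 1 at an unadjusted p under 0.05, and the pi-class Gstp3 had 6.67, 6.73 and 6.75 in KO lungs, against 6.30, 6.65, 6.34 and 6.55 in WT lungs (log2 change 0.26, limma adjusted p = 0.0926). It passed without WT replicate 2. Among 15 tested Gst genes, means were higher in KO for 10 and lower for 5. Cyp3a13, the only Cyp3a gene tested, had 6.82, 7.22 and 7.26 in KO lungs, against 6.72, 6.84, 6.84 and 6.95 in WT lungs (log2 change 0.26, limma adjusted p = 0.136), and passed at 0.40 without KO replicate 1. Cyp2a12, a steroid-hydroxylating P450, had 5.81, 5.60 and 6.06 in KO lungs, against 5.55, 5.60, 5.50 and 5.47 in WT lungs (log2 change 0.29, limma adjusted p = 0.0851). It passed without KO replicate 2. Over all fits that left out 1 array, the limma adjusted p reached 0.199 for Gstp3, 0.344 for Cyp3a13 and 0.198 for Cyp2a12. Groups did not overlap for 8 of the 41 genes, all higher in KO, against 29.6% of all tested genes, 12.1% with KO higher and 17.5% with KO lower.

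Below the filter lay 33 genes, chiefly liver P450 genes of the Cyp2 family, and 29 of them had a higher mean in KO. Of all 4908 genes below the filter, 84.1% had a higher mean in KO. The median log2 change was 0.10 for the 33 genes and 0.09 for all genes below the filter. Cyp2b13, Cyp2d26, Cyp2c37 and Cyp2d10 had groups that did not overlap, against 12.7% of all genes there with KO higher. The largest difference was that of Cyp3a11, a main drug-oxidising P450 of liver, with 5.21, 4.44 and 4.17 in KO lungs, against 3.83, 4.06, 4.05 and 4.22 in WT lungs, which overlapped, with KO replicate 1 the highest array. Among tested genes below a level of 7, 10 of 14 enzyme genes and 68.8% of all genes had a higher mean in KO. From 7 to 9 it was 9 of 11 enzyme genes and 45.1% of all genes. Above 9 it was 10 of 16 enzyme genes and 38.3% of all genes.

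**Figure D5:**
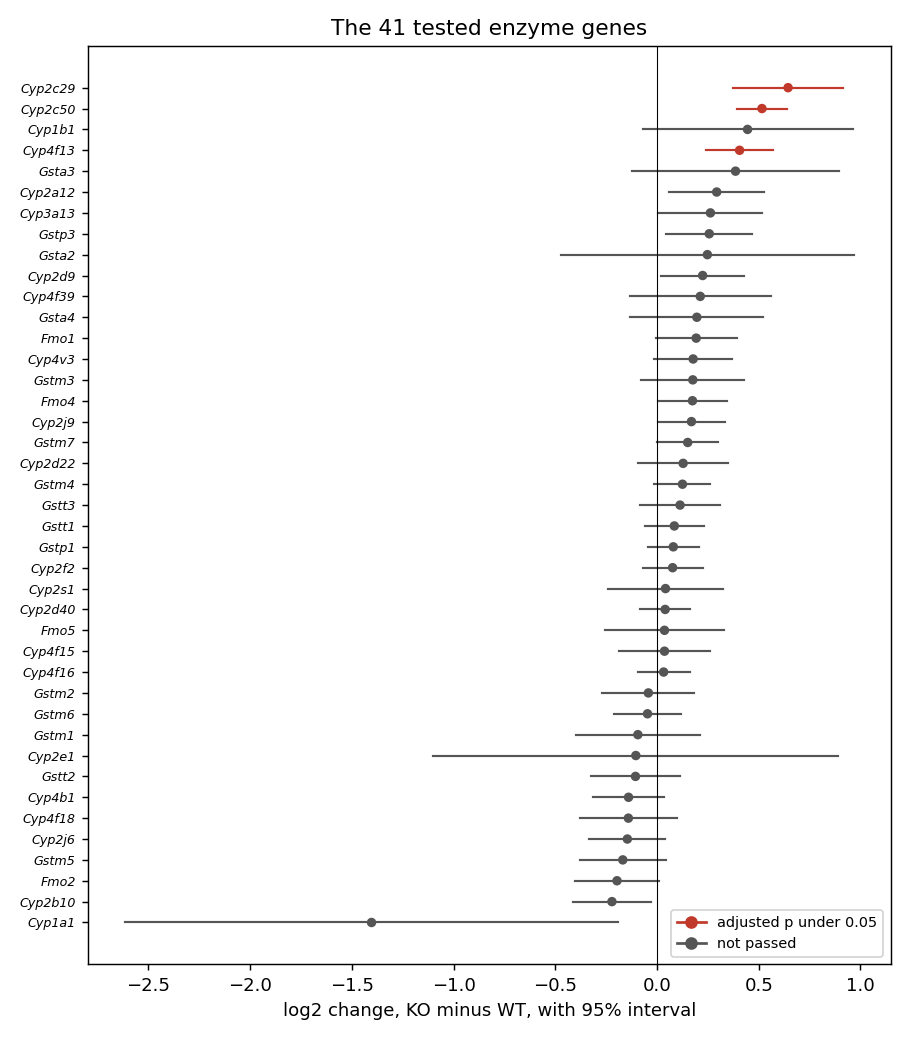
Log2 change (KO minus WT) with its 95% interval for the 41 tested enzyme genes, sorted by change. The 3 intervals in red passed, the interval of Cyp1a1 runs from -2.62 to -0.19, and 34 of 41 intervals lie within 1.5-fold of no change. Over all 13285 tested genes, which are not drawn, 11408 intervals lie within 1.5-fold.

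The partners of these enzymes were counted from lists of 104 tested genes, of which 5 rose and 7 fell in KO lungs, 11.5% against 15.6% of all tested genes. None of 11 electron donors and haem genes passed in the limma fit, and 2 were lower at an unadjusted p under 0.05. Of 13 sensing factors, 2 fell: Mafg, a small partner of the stress factor Nrf2, by 0.50 on the log2 scale (limma adjusted p = 0.0100), and Nfe2l2, which encodes Nrf2, by 0.42 (limma adjusted p = 0.0451). Of 16 Nrf2-linked and glutathione genes, Gpx3, a secreted glutathione peroxidase, had 12.59, 12.11 and 12.42 in KO lungs, against 13.16, 13.26, 12.97 and 13.00 in WT lungs. It was lower on every KO array, by 0.72 on the log2 scale or 1.65-fold (limma adjusted p = 0.00961). Of 13 conjugation and efflux genes, 4 rose: the efflux pumps Abcc4 (0.43), Abcc5 (0.42) and Abcc1 (0.32) and the acetyltransferase Nat1 (0.30), with limma adjusted p between 0.0167 and 0.0346. Of 30 other phase 1 enzymes, which include hydrolases and reductases, 3 fell: Pon2 by 0.30, Aldh3a2 by 0.36 and Aldh2 by 0.23. Of 10 other glutathione transferases, Mgst2 rose by 0.47, and of 11 other P450 genes, Ptgis, prostacyclin synthase, fell by 0.34. Nat1 had a WT mean under the level filter. Of these 12, only Gpx3, Mafg, Pon2 and Abcc4 passed in every fit that left out 1 array. When probe sets were averaged by gene, 5 of the 12 calls ended: Abcc5 had a log2 change of 0.01, Abcc1 of 0.15, Pon2 of -0.17, Aldh2 of -0.12 and Nfe2l2 of 0.03, with limma adjusted p between 0.0858 and 0.912. Of 8 endothelial markers, 3 fell and none rose, where 10.0% of all tested genes fell and 5.56% rose. The mean level of these markers was 10.18 to 10.45 on KO arrays and 10.64 to 10.87 on WT arrays. Their part in the changes of the partner genes was not tested. Among other marker lists, markers fell for 2 of 9 type 2 and 2 of 8 type 1 alveolar, 3 of 7 smooth muscle, 3 of 6 mesothelial, 1 of 7 macrophage and 1 of 8 ciliated cell genes, and none rose.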

How the data were processed

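RNA of 7 left lungs was measured on 7 Affymetrix Mouse Genome 430 2.0 arrays after biotin labelling. The deposited values are log2 levels for 45101 probe sets, and the submitters' processing notes name Affymetrix Expression Console, RMA and MAS5 without roles or versions. None of the sources used here says which method made the table. Values lay between 2.91 and 14.61 and were used as deposited. The platform annotation named 1 gene for 34945 probe sets, several for 932 and none for 9160, with 64 controls left out. Of the named probe sets, 34741 matched a RefSeq gene of GRCm38.p6. Genes whose mean reached the 40th percentile of probe set means (5.47) were tested.

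The KO and WT groups were fitted in limma 3.58.1 (lmFit, eBayes) under R 4.3.3 with no term beside genotype, and p-values were adjusted by Benjamini-Hochberg over all 13285 tested genes, with 0.05 as the threshold. Probe sets were fitted likewise over all 34945. The number of arrays limits the precision. P-values set the KO minus WT difference against the spread of these 7 arrays within their groups. Scripts were tested on simulated data. The enzyme genes, the lists and the alternatives were chosen with earlier results of these data known. Named were the genes that passed, the 12 with the highest means, the 4 largest changes among the rest, genes with groups apart by at least 0.3 log2, and the brightest gene of each family. The genes Gsta2, Cyp2e1, Gstp3, Cyp3a11, Cyp2b13, Cyp2d26, Cyp2c37 and Cyp2d10, the Ahr target genes, Nat1, the shared probe set, the further probe sets and the control probe sets were named after their values were seen, and from the marker lists only some of the brightest are named. Python 3.11.15 and matplotlib 3.10.9 made the figures.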

Additional observations from a re-analysis of the deposited data

Results flagged for a closer look

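Gstt1 on WT replicate 4 lay apart from the other WT arrays, at 10.26 against 10.14, 10.15 and 10.15. The gap to the nearest array was 0.917 of the range of the WT group, above Dixon's 95% critical value for 4 samples. Chance flags about 1 in 20 groups of this size, and the KO arrays had 10.17, 10.32 and 10.29. Gstt1 was not alone in such a gap, as the KO arrays of Gstm1 had 11.96, 11.91 and 11.96.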

How the results depend on the processing

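Cyp2c29, Cyp2c50 and Cyp4f13 kept their direction under every alternative run. As counts higher and lower in KO, the enzyme genes (3 and 0) gave 5 and 0 of 74 with no level filter and 1 and 0 of 30 with the filter at the 60th percentile. They gave 3 and 2 of 41 with the mean of all probe sets, where Fmo2 and Cyp2b10 joined. Over all genes these settings gave 768 and 1233 of 18193, 622 and 1353 of 10106, and 557 and 1218 of 13285. All tested genes (738 and 1331) gave 1191 higher after further quantile normalization. The partner genes (5 and 7) gave 4 lower after it and 3 higher with the mean of all probe sets, and the 99 probe sets (5 and 4) gave 3 higher after quantile normalization or cyclic loess. With the beta-actin 3′ minus 5′ or 3′ minus middle covariate all counts were 0 and 0, and with the Gapdh covariate 5 genes were lower and all other counts 0. Each of these covariates was larger on every KO array than on any WT array. Fits with them can therefore hardly separate the covariate from genotype. In the 5 mice with the lowest mouse numbers, a fit without WT replicates 3 and 4, 1 probe set was lower and all other counts were 0. The causes were not tested.

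With the replicate number as a block, all genes gave 98 and 273, the enzyme genes 2 and 0, the partner genes 0 and 2, and 2 probe sets were higher. The numbers pair nothing in the labels, and deviations of same-numbered arrays correlated at 0.003, -0.042 and 0.035. Leaving out each array gave 287 to 626 higher and 604 to 1325 lower genes, 3 to 5 and 0 to 1 enzyme genes, 1 to 8 and 3 to 7 partner genes, and 3 to 6 and 3 to 5 probe sets. The lowest counts over all genes, 287 and 604, came without WT replicate 4.

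Log2 changes that turned sign had not passed, except that of Nfe2l2, which was 0.0283 with the mean of all probe sets. That setting also turned Gstm1 to 0.0246, Cyp4v3 to -0.0863 and Gsta3 to -0.11. The beta-actin 3′ minus middle covariate turned Cyp2f2 to -0.11, Cyp2s1 to -0.24, Gsta4 to -0.26, Gsta3 to -0.42, Cyp1b1 to -0.0616, Cyp2a12 to -0.0679 and Gsta2 to -0.75. The 3′ minus 5′ covariate turned Cyp4b1 to 0.0529, Gstm1 to 0.23, Gstm2 to 0.0376 and Cyp2e1 to 0.0165. The Gapdh covariate turned Cyp4b1 to 0.12, Gstm1 to 0.13, Gstm2 to 0.0447, Cyp2e1 to 0.20 and Gstt1 to -0.0039. Quantile normalization and cyclic loess turned Gstm2 to 0.0574 and 0.0233, and the 5 mice turned Cyp2s1 to -0.10 and Gsta2 to -0.13. Leaving out 1 array gave -0.16 to 0.04 for Gstm1, -0.06 to 0.12 for Cyp2s1, -0.11 to 0.0433 for Gstm2 and -0.33 to 0.32 for Cyp2e1. The fits over probe sets and their alternatives were chosen after seeing the data. The number of arrays limits precision most for Cyp1a1 and Cyp2e1, whose 95% intervals ran from -2.62 to -0.19 and from -1.10 to 0.89.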
